A study of Homo sapiens with 6 samples.

Results

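The nuclear-encoded genes of the mitochondrial respiratory chain and ATP synthase were examined in libraries labelled as the human colorectal adenocarcinoma cell line SW480. They were taken from the deposited table by symbol: protein-coding genes named NDUFA, NDUFB, NDUFC, NDUFS or NDUFV with a number, SDHA to SDHD, UQCR, COX4 to COX8 and ATP5, together with CYC1 and CYCS. The symbols gave 92 genes of 58735 in the table, of which 19951 were protein-coding. By complex these were 37 genes of complex I (NADH dehydrogenase), 4 of complex II (succinate dehydrogenase), 10 of complex III (cytochrome bc1), 19 of complex IV (cytochrome c oxidase), 21 of complex V (ATP synthase) and CYCS, which encodes cytochrome c. NDUFA4 and NDUFA4L2 were counted with complex IV, since NDUFA4 is a subunit of that enzyme. The symbols also take in ATP5IF1, which encodes an inhibitor of ATP synthase and not a subunit, and the readthrough genes NDUFC2-KCTD14 and ATP5MF-PTCD1, and they miss NDUFAB1. No measured value entered the choice by symbol, though earlier results of these data were known when it was made.

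The respiratory chain passes electrons from NADH (complex I) and succinate (complex II) to ubiquinone, on to cytochrome c through complex III, and to oxygen through complex IV. Complexes I, III and IV pump protons across the inner mitochondrial membrane, and complex V uses the return of protons to make ATP. Most subunits are encoded in the nucleus and imported, while a small set, including core subunits of every complex but II, is encoded in mitochondrial DNA, so each of those enzymes is built from the products of both genomes.

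The series compares 3 libraries labelled as SW480 with DDX39B overexpression with 3 libraries labelled as SW480 control; DDX39B encodes a DEAD-box RNA helicase of mRNA splicing and export. No vector, drug or time after its introduction is named in the sources used here, nor whether the 3 libraries of a group were separate cultures, so p-values measure only the spread between these libraries, which may be technical. All 6 were grown in Leibovitz L-15 medium with serum in air without added CO2, and libraries were made from total RNA with a SMARTER mRNA kit. Values are FPKM, fragments scaled to gene length and to sequencing depth, as deposited by the authors. The reads worked out from them summed to 16963075 to 17463697 per library, of which the 92 genes held 0.765 to 0.804% under the overexpression label and 0.849 to 0.907% under the control label.

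The targeted gene went against its label. DDX39B was at 15.02, 13.9 and 14.0 FPKM under the overexpression label and 39.3, 34.6 and 41.9 FPKM under the control label, 2.70-fold lower in the libraries labelled as overexpression (log2 fold change -1.37, SE 0.079, adjusted p = 6.93e-06). Every direction below is therefore stated between the label names and not between known DDX39B levels. Markers of the labelled cell line also differed: of 10 colorectal epithelium markers, 7 were tested and all 7 were higher in the overexpression-labelled libraries, with a summed level of 1972 to 1996 FPKM against 358 to 430.3 FPKM. In the control-labelled libraries CDX2 had 0 reads, KRT19 29 reads and EPCAM 2.72 ± 0.668 FPKM, whereas KRT8 and KRT18 were present in both groups. Whether the control-labelled libraries hold RNA of SW480 cells was not tested, so each comparison below is one between libraries with these labels. Marker sums of other cell types were 0.863 to 1.31 against 0.132 to 0.632 FPKM for 8 leukocyte genes (PTPRC at 0 against 5 reads), 1.54 to 1.67 against 4.29 to 8.20 FPKM for 6 fibroblast genes (COL3A1 and DCN at 0 reads in the first group), 1.04 to 1.43 against 36.2 to 50.6 FPKM for 6 endothelial genes, nearly all ESAM (CDH5 and TEK at 0 reads in the first group), and 0.207 to 0.558 against 2.62 to 2.96 FPKM for 5 striated muscle genes. The part of these differences in the results below was not tested.

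Of the 92 genes, 80 averaged 1 FPKM or more across all libraries and were tested, and the other 12 are described by their reads. With limma on log2(FPKM + 1) and Benjamini-Hochberg adjustment over all 13972 genes tested, 30 respiratory chain genes were higher and 31 lower in the overexpression-labelled libraries at an adjusted p under 0.05, and 19 did not pass. The background was as high: 76.8% of all tested genes were called, 37.5% higher and 39.3% lower, so these counts sit at the level of the table as a whole. By complex, the shares of tested genes higher and lower were 38.2% and 32.4% (I), 0% and 50% (II), 40% and 50% (III). They were 33.3% and 50% for complex IV and 47.4% and 36.8% for complex V. In bulk RNA, fewer cells of a kind and less RNA per cell cannot be told apart.

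The changes were mostly small. A change of at least 2-fold past the threshold was seen in 3 respiratory chain genes upward and 8 downward, 13.8% of the 80, while 39.2% of all tested genes changed that much. Among genes averaging 5 FPKM or more, the shares were 12.3% of 73 respiratory chain genes and 32.5% of 7796 genes. The median absolute log2 fold change was 0.41 for the 80 genes and 0.62 for all tested genes, and the signed medians were 0.06 and -0.03. Per length, the tested genes had a median level of 26.9 FPKM against 31.2 FPKM, from NDUFA13 at 1.16 and 1.24 FPKM to ATP5F1B at 324 and 432.5 FPKM. The log2 fold changes ran from -1.47 (SDHA) to 1.45 (NDUFA12). For 67 of the 80 no value of one group fell within the range of the other, as for 80.1% of all tested genes.

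**Figure D1:**
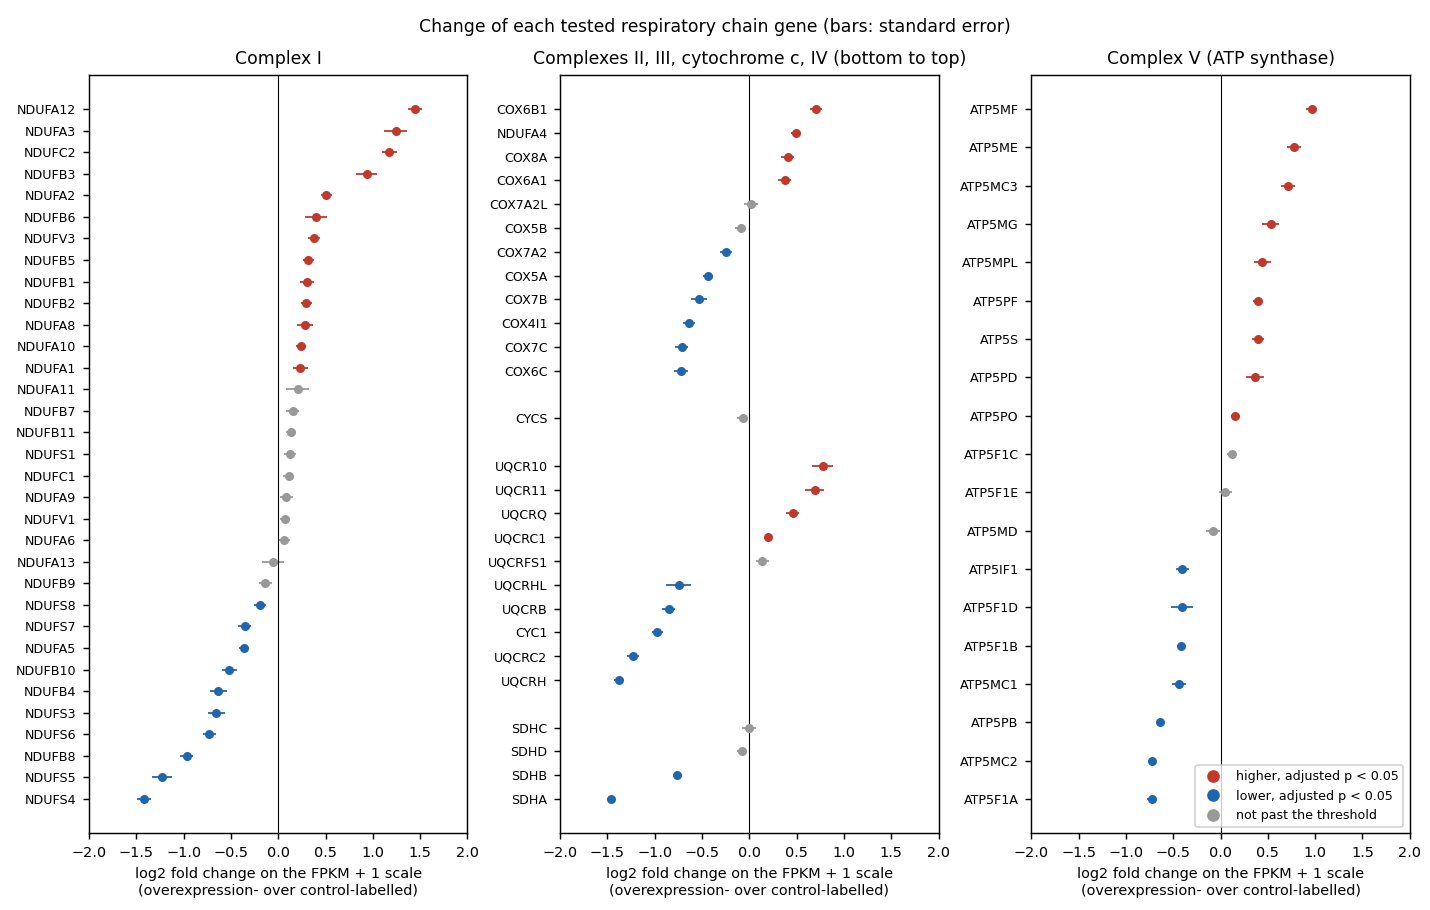
Log2 fold change on the FPKM + 1 scale (x axis, overexpression-labelled over control-labelled) of the tested genes, one row a gene, by complex, with 1 gene not shown; points are limma estimates, bars the standard error, red higher, blue lower, grey not past an adjusted p of 0.05. Complexes I, III, IV and V each hold genes on both sides of 0, from SDHA at -1.47 to NDUFA12 at 1.45, and complex II has none above 0 past the threshold.

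Complex I was divided, as was the table as a whole. It is an L-shaped enzyme with a matrix arm, made of the N module that oxidises NADH and the Q module that reduces ubiquinone, and a membrane arm that pumps protons. Of its 34 tested genes, 13 were higher, 11 lower and 10 not past the threshold, and summed over all 37 genes the level was 1067 ± 46.1 FPKM against 1224 ± 54.5 FPKM (SD, n = 3 each). The split depended on the scaling: FPKM recomputed on the plain sum of reads gave 19 higher and 10 lower, as did quantile normalization, and voom on the reads gave 21 higher and 10 lower.

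NDUFS4 and NDUFS5 were among the genes that fell most. NDUFS4 (chr5:53560633-53683340, plus strand), an accessory subunit of the N module, was at 11.8, 12.2 and 12 FPKM under the overexpression label and 33.4, 30.7 and 37.4 FPKM under the control label. The groups lay far apart, with every control-labelled library above 30 FPKM, and the gene was 2.82-fold lower (log2 fold change -1.42, SE 0.076, adjusted p = 4.93e-06). NDUFS5 (chr1:39026318-39034636, plus strand), an accessory subunit of the membrane arm on the intermembrane side, had the highest level per length of all complex I genes in both groups, 118, 118 and 100.4 against 272, 289 and 231 FPKM. It was 2.35-fold lower (log2 fold change -1.22, SE 0.105, adjusted p = 4.71e-05), and the lowest control-labelled library was still about double the highest of the other group. NDUFB8, an accessory subunit of the distal membrane arm, was at 2.92, 2.58 and 2.55 against 6.44, 6.17 and 5.95 FPKM and 2.31-fold lower (log2 fold change -0.97, SE 0.068, adjusted p = 1.77e-05). Of its annotated exon bases 33.8% are shared on the same strand with the readthrough gene AL133352.1, which had 0 and 3 reads, and others with HIF1AN on the opposite strand.

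Changes of other genes for the matrix arm near the ubiquinone site were smaller. NDUFS3 was at 15.4, 15.7 and 13.6 against 23.04, 22.1 and 27.0 FPKM (1.61-fold lower) and NDUFA5 at 4.80, 4.84 and 4.59 against 6.44, 6.54 and 6.15 FPKM (1.35-fold lower). Of the exon bases of NDUFS3, 19.6% are shared on the same strand with PTPMT1, which had 337 against 341 reads. CELF1 and KBTBD4, which overlap NDUFS3 on the opposite strand, were both lower, CELF1 with 10851 against 20690 reads. NDUFS7, which holds the last iron-sulfur cluster before ubiquinone, was at 1.90, 2.01 and 2.01 against 2.65, 2.75 and 3.00 FPKM (1.42-fold lower), and 49.1% of its annotated exon bases overlap genes on the opposite strand. The change of NDUFS8 was small, 16.2, 18.4 and 16.5 against 20.3, 19.1 and 19.4 FPKM (log2 fold change -0.19, SE 0.063, adjusted p = 0.0266). That call was lost without overexpression replicate 1 or 3 or control replicate 1 (adjusted p = 0.0846 to 0.101) and under the 3 other scalings (adjusted p = 0.148 to 0.239).

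The core subunits NDUFV1 and NDUFS1 of the N module did not pass the threshold. NDUFV1, which binds FMN and takes the electrons from NADH, was at 35.9, 37.7 and 35.1 against 33.4, 35.7 and 34.3 FPKM with overlapping groups (log2 fold change 0.07, SE 0.052, adjusted p = 0.255). NDUFS1, the largest iron-sulfur subunit, was at 10.3, 9.55 and 10.4 against 9.32, 9.52 and 8.68 FPKM (log2 fold change 0.13, SE 0.061, adjusted p = 0.102). Their partner NDUFV2 was listed at only 0.962, 1.04 and 0.578 against 1.27, 1.03 and 0.904 FPKM, from 125 against 144 reads, and was not tested. NDUFV2 encodes an obligate core subunit, and 28.4% of its annotated exon bases are shared on the same strand with AP005263.1; how reads in shared exons were counted is not given in the sources used here, so its low level, and that of NDUFA7 (43 against 7 reads, with 32.3% of its exon bases shared with AC010323.1) and of NDUFA13 (1.24, 0.838 and 1.41 against 1.27, 1.12 and 1.32 FPKM, 21.0% shared), is uncertain. NDUFC2-KCTD14 had 0 reads in all 6 libraries.

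On the other side of complex I, 4 accessory subunits rose by 1.9-fold or more. NDUFA12 (chr12:94897055-95003770, minus strand), which sits where the N and Q modules meet, was at 62.4, 57.0 and 57.7 FPKM under the overexpression label and 19.6, 20.7 and 22.9 FPKM under the control label. The lowest overexpression-labelled library was more than double the highest control-labelled one, and the gene was 2.80-fold higher (log2 fold change 1.45, SE 0.072, adjusted p = 3.4e-06). NDUFC2, an accessory subunit of the membrane arm, was at 9.28, 9.33 and 8.23 against 3.40, 3.73 and 3.09 FPKM (2.63-fold higher, log2 fold change 1.18, SE 0.081, adjusted p = 1.57e-05). NDUFA3, also of the membrane arm, was at 17.3, 16.2 and 16.4 against 6.05, 8.07 and 5.53 FPKM (2.54-fold higher, log2 fold change 1.24, SE 0.123, adjusted p = 9.99e-05). Its end overlaps TFPT on the opposite strand over 6.34% of its exon bases, and TFPT was higher at 25.1 ± 0.662 against 5.12 ± 0.489 FPKM. NDUFB3, of the distal membrane arm, was at 42.4, 36.1 and 34.9 against 19.7, 21.6 and 16.8 FPKM (1.95-fold higher, log2 fold change 0.93, SE 0.111, adjusted p = 0.00025). All of these groups were apart.

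**Figure D2:**
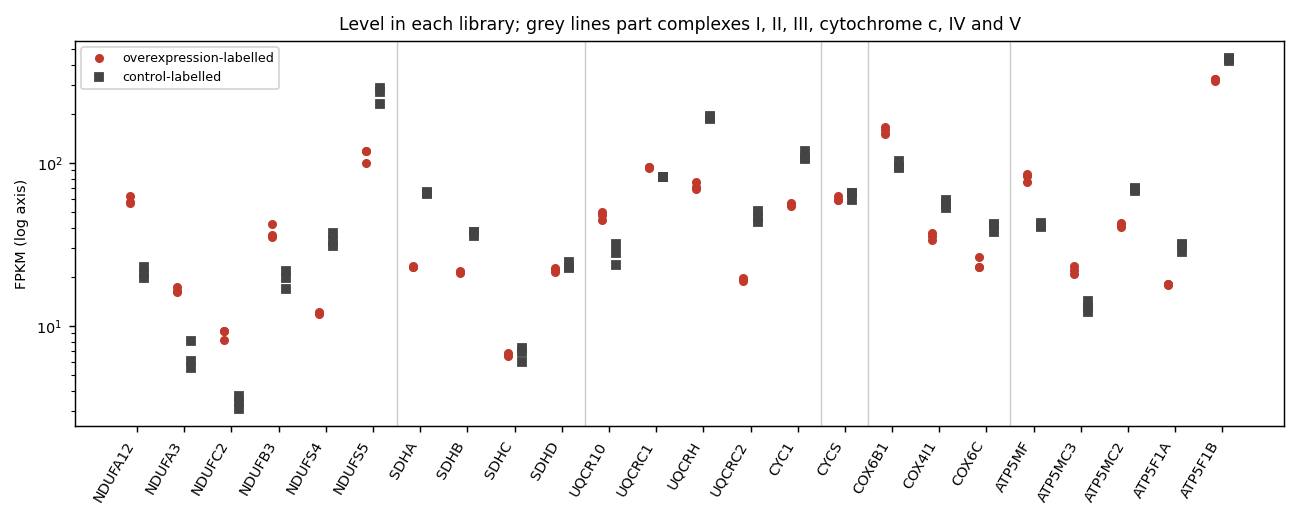
FPKM (log y axis) of 24 named genes in every library, red circles for the 3 overexpression-labelled and dark squares for the 3 control-labelled libraries, with grey lines between complexes I, II, III, cytochrome c, IV and V. NDUFA12, NDUFA3, NDUFC2 and NDUFB3 lie higher and NDUFS4, NDUFS5, SDHA, UQCRH and UQCRC2 lower in the overexpression-labelled libraries with no overlap, while SDHC and CYCS overlap.

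The remaining changes of complex I were under 2-fold. NDUFS6 (1.67-fold), NDUFB4 (1.57-fold) and NDUFB10 (1.44-fold) were lower. NDUFA2 (1.44-fold), NDUFB6 (1.33-fold), NDUFV3 (1.35-fold), NDUFB5 (1.27-fold), NDUFB1 (1.25-fold), NDUFB2 (1.25-fold), NDUFA8 (1.22-fold), NDUFA10 (1.20-fold) and NDUFA1 (1.18-fold) were higher. Of these, NDUFA8 lost its call without overexpression replicate 1 or 2 or control replicate 1 (adjusted p = 0.0557 to 0.0835), NDUFA1 without overexpression replicate 1 or 2 or control replicate 3 (0.0609 to 0.1002), and NDUFB6 without overexpression replicate 1 (0.0584). Beside NDUFV1 and NDUFS1, those not past the threshold were NDUFA6, NDUFA9, NDUFA11, NDUFA13, NDUFB7, NDUFB9, NDUFB11 and NDUFC1, with log2 fold changes between -0.14 and 0.21. NDUFA9, an accessory subunit at the ubiquinone site, was at 2.01, 1.82 and 1.77 against 1.76, 1.72 and 1.62 FPKM (log2 fold change 0.09, SE 0.072, adjusted p = 0.306).

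Complex II had 0 genes higher, 2 lower and 2 not past the threshold among 4 tested, where 39.3% of all tested genes were lower. It oxidises succinate in the citric acid cycle and has a catalytic pair in the matrix, SDHA and SDHB, and a pair of membrane anchors, SDHC and SDHD. SDHA (chr5:218241-256700, plus strand), the flavoprotein that binds succinate, was at 23.01, 22.9 and 23.3 FPKM under the overexpression label and 66.4, 65.5 and 64.5 FPKM under the control label. It was 2.84-fold lower, the largest change of the 80 genes (log2 fold change -1.47, SE 0.042, adjusted p = 3.05e-07). SDHB (chr1:17018722-17054170, minus strand), which carries the iron-sulfur clusters, was at 21.4, 21.6 and 21.2 against 37.5, 35.7 and 37.8 FPKM, 1.73-fold lower (log2 fold change -0.76, SE 0.046, adjusted p = 8.79e-06). The groups were apart for both.

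Neither anchor passed the threshold. SDHC was at 6.80, 6.65 and 6.53 against 6.88, 7.26 and 5.96 FPKM, with overlapping groups (log2 fold change -0.0038, SE 0.076, adjusted p = 0.966), and SDHD at 21.3, 22.2 and 22.7 against 22.5, 22.9 and 24.5 FPKM (log2 fold change -0.08, SE 0.055, adjusted p = 0.246). At an SD of 0.668 FPKM among the control-labelled libraries, a small change of SDHC was not detectable. Summed over the 4 genes, complex II stood at 73.2 ± 0.647 FPKM against 132.5 ± 0.988 FPKM, a ratio of 0.55, the lowest of the 5 complexes; SDHA and SDHB made the difference. The sum weights SDHC little, because the table divides its reads by an annotated length of 14160 bases. Of the 50-base words of SDHA 8.65% recur in other genes. The 149 pseudogenes whose names match the symbols held 506 and 508 reads, 0.125 and 0.113% of the reads of respiratory chain genes and pseudogenes. The symbols take in no pseudogene of SDHA to SDHD, CYC1 or CYCS, so that total says nothing about SDHA.

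Complex III had 4 genes higher, 5 lower and 1 not past the threshold among 10 tested, and its summed level was 433.7 ± 13.7 FPKM against 576 ± 9.72 FPKM. UQCRH (chr1:46303631-46316776, plus strand), the acidic hinge protein that helps cytochrome c1 meet cytochrome c, was at 70.8, 76.7 and 69.7 FPKM under the overexpression label and 188, 187 and 195 FPKM under the control label. It was 2.63-fold lower (log2 fold change -1.38, SE 0.054, adjusted p = 1.13e-06), and alone accounted for most of the difference between the sums. UQCRC2 (chr16:21952660-21983660, plus strand), one of the paired core proteins on the matrix side, was at 19.5, 18.9 and 19.5 against 46.8, 43.2 and 50.4 FPKM, 2.42-fold lower (log2 fold change -1.23, SE 0.065, adjusted p = 4.67e-06). Its partner UQCRC1 went the other way, with 94.1, 94.6 and 93.3 against 81.9, 81.6 and 81.6 FPKM, 1.15-fold higher (log2 fold change 0.20, SE 0.040, adjusted p = 0.00322). The groups were apart for both core proteins.

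CYC1, the cytochrome c1 that hands electrons to cytochrome c, was at 55.8, 54.6 and 56.5 against 107, 106 and 118 FPKM, 1.98-fold lower (log2 fold change -0.97, SE 0.056, adjusted p = 6.81e-06). The Rieske iron-sulfur protein UQCRFS1 was at 23.5, 23.6 and 22.5 against 22.1, 22.0 and 19.1 FPKM and did not pass the threshold (log2 fold change 0.13, SE 0.068, adjusted p = 0.114). Of the small subunits, UQCRB was lower, at 8.64, 7.47 and 7.48 against 14.6, 14.9 and 15.5 FPKM (1.91-fold). UQCR10 was higher, at 50.1, 47.9 and 44.9 against 27.8, 31.6 and 23.5 FPKM (1.72-fold), as were UQCR11 (9.89, 11.6 and 9.65 against 5.30, 6.12 and 6.72 FPKM, 1.71-fold) and UQCRQ (105, 106 and 92.6 against 71.4, 76.1 and 72.5 FPKM, 1.38-fold). UQCRHL, a gene with a UQCRH-like coding sequence, was at 2.03, 1.85 and 2.05 against 4.31, 3.10 and 4.74 FPKM; of the 50-base words in the exons of UQCRH, 13.03% recur in other genes, UQCRHL first among them, so some reads may pass between the copies. For cytochrome c itself, CYCS was at 62.3, 59.1 and 59.3 against 65.5, 65.3 and 59.0 FPKM with overlapping groups and did not pass the threshold (log2 fold change -0.07, SE 0.058, adjusted p = 0.314).

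Complex IV had 12 tested genes, of which 4 were higher, 6 lower and 2 not past the threshold, and none changed by 2-fold. Its summed level over 19 genes was 871 ± 47.5 FPKM against 855 ± 13.6 FPKM, a difference within the spread of the overexpression-labelled libraries. COX4I1 and COX5A, which bind each other on the matrix face of the enzyme, were both lower. COX4I1 was at 37.3, 35.8 and 33.4 against 56.0, 58.9 and 52.7 FPKM (1.57-fold, log2 fold change -0.64, SE 0.065, adjusted p = 0.000108) and COX5A at 66.5, 63.4 and 63.1 against 87.8, 82.9 and 91.4 FPKM (1.36-fold, log2 fold change -0.44, SE 0.054, adjusted p = 0.000318). The small transmembrane subunits COX6C (26.4, 22.9 and 23.1 against 42.0, 41.9 and 37.5 FPKM, 1.68-fold), COX7C (77.1, 66.9 and 66.9 against 117, 118 and 112 FPKM, 1.65-fold) and COX7B (27.4, 24.9 and 21.8 against 35.7, 34.8 and 37.4 FPKM, 1.46-fold) were lower too. COX7A2 was 1.19-fold lower and lost its call under quantile normalization, FPKM on the sum of reads and voom (adjusted p = 0.104, 0.0671 and 0.0833).

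Upward went COX6B1, the subunit on the intermembrane side that bridges the monomers, at 167, 159 and 149.8 against 94.8, 93.5 and 103 FPKM (1.63-fold, log2 fold change 0.70, SE 0.063, adjusted p = 5.92e-05). NDUFA4 (47.6, 44.2 and 43.3 against 31.6, 31.5 and 32.2 FPKM, 1.42-fold), COX6A1 (43.4, 40.3 and 36.7 against 30.2, 31.8 and 30.1 FPKM, 1.31-fold) and COX8A (254, 264 and 234 against 179, 185 and 201 FPKM, 1.33-fold) were also higher. COX8A had the highest level per length within the complex, and its rise, with that of COX6B1, stood against the fall of the others in the sum. The zinc-binding COX5B (100.4 ± 7.08 against 107 ± 2.45 FPKM) and the supercomplex factor COX7A2L (14.7 ± 0.635 against 14.5 ± 1.34 FPKM) did not pass the threshold.

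Tissue-restricted isoforms of complex IV had few or no reads in both groups. COX6A2, the heart and muscle form, had 0 reads in all 6 libraries. COX4I2 had 2 against 0 reads, COX7B2 1 against 0 reads and COX8C 0 against 3 reads, at or under the floor of 3 reads, so no fold is given. The muscle form COX7A1 had 25 against 10 reads. NDUFA4L2, a relative of NDUFA4 known for its induction in hypoxia, had 90 against 158 reads and made up 1.31% and 3.43% of the summed FPKM of NDUFA4 and NDUFA4L2. COX6B2, the testis form, was the exception: it was at 1.66, 1.44 and 1.35 against 0.370, 0.280 and 0.188 FPKM, with groups apart and 5.32-fold higher means from 303 against 53 reads. Its mean was under 1 FPKM and it was not tested. It remained a small part beside COX6B1, 0.926% and 0.290% of the FPKM of the pair, and 30.9% of its exon bases are shared with AC020922.1, which had 0 reads.

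Complex V had 19 tested genes, with 9 higher, 7 lower and 3 not past the threshold, none by 2-fold, and a summed level of 898 ± 20.3 FPKM against 1011 ± 34.3 FPKM. The F1 head, where ATP is made, consists of 3 alpha and 3 beta subunits around a stalk. ATP5F1B, the catalytic beta subunit, had the highest level per length of all 92 genes, at 318, 327 and 327 FPKM under the overexpression label and 433, 439.5 and 425 FPKM under the control label; it was lower by 1.34-fold (log2 fold change -0.42, SE 0.043, adjusted p = 0.000126). ATP5F1A, the alpha subunit (chr18:46080248-46104334, minus strand), was at 18.0, 18.0 and 17.9 against 30.8, 31.7 and 28.5 FPKM, 1.69-fold lower (log2 fold change -0.72, SE 0.055, adjusted p = 2.61e-05). Alpha and beta stand in equal number in the enzyme, but their FPKM divide 10485 and 16508 reads of ATP5F1A by 10908 annotated exon bases, and 40280 and 50131 reads of ATP5F1B by 2322.

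ATP5F1D, the delta subunit, was lower at 31.5, 32.7 and 31.3 against 46.5, 46.9 and 35.2 FPKM (log2 fold change -0.41, SE 0.112, adjusted p = 0.0141). Its call was lost without control replicate 1 (adjusted p = 0.0514), under quantile normalization (0.0582) and with FPKM on the sum of reads (0.0557). The gamma subunit ATP5F1C (42.7 ± 2.00 against 39.0 ± 1.10 FPKM) and the epsilon subunit ATP5F1E (39.1 ± 3.36 against 37.6 ± 0.240 FPKM) did not pass the threshold. Thus of the 5 genes of F1, grouped after the values were seen, 3 were lower and 0 higher. These are 60% and 0%, against 39.3% and 37.5% of all tested genes, and 5 genes are too few to set F1 apart. The peripheral stalk was split: ATP5PB, its long b subunit, was lower at 32.0, 32.1 and 32.2 against 51.0, 51.5 and 49.1 FPKM (1.57-fold, log2 fold change -0.64, SE 0.044, adjusted p = 1.58e-05), whereas ATP5PF (1.33-fold), ATP5PD (1.30-fold) and ATP5PO (1.13-fold) were higher. The call of ATP5PO, the hinge between stalk and head, was lost without overexpression replicate 1, 2 or 3 or control replicate 1 (adjusted p = 0.05001 to 0.0776). Genes on the opposite strand overlap 23.1% of the exon bases of ATP5PF and 19.1% of those of ATP5PD. ATP5PO shares 25.4% with genes on either strand, and LINC00649, on the opposite strand, had 2380 against 13 reads.

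The 3 genes for subunit c moved apart. ATP5MC1, ATP5MC2 and ATP5MC3 differ in their import sequences and encode the same mature protein of the membrane ring that proton flow turns. ATP5MC2 was at 42.7, 41.5 and 40.2 against 70.3, 69.3 and 67.7 FPKM (1.67-fold lower, log2 fold change -0.72, SE 0.046, adjusted p = 1.14e-05) and ATP5MC1 at 29.2, 31.4 and 29.8 against 40.3, 45.9 and 37.9 FPKM (1.37-fold lower, log2 fold change -0.44, SE 0.078, adjusted p = 0.00188). ATP5MC3 was at 23.2, 22.1 and 20.8 against 13.1, 14.2 and 12.1 FPKM, 1.68-fold higher (log2 fold change 0.71, SE 0.074, adjusted p = 0.000126). All 3 pairs of groups were apart. ATP5MC2 had the highest level per length of the 3 in each library.

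ATP5MF, ATP5ME and ATP5MG, membrane subunits of the dimer interface, were higher. ATP5MF was at 83.5, 85.4 and 76.8 against 40.4, 43.0 and 41.2 FPKM (1.97-fold, log2 fold change 0.96, SE 0.058, adjusted p = 8.22e-06), ATP5ME at 22.1, 23.1 and 21.3 against 12.5, 13.7 and 11.4 FPKM (1.77-fold, log2 fold change 0.78, SE 0.074, adjusted p = 7.84e-05) and ATP5MG at 12.5, 12.4 and 10.1 against 7.18, 8.11 and 8.005 FPKM (1.503-fold, log2 fold change 0.53, SE 0.093, adjusted p = 0.00182). Over 61.6% of its exon bases ATP5ME overlaps MYL5 on the opposite strand. ATP5MPL (1.39-fold) and ATP5S (1.51-fold) were higher as well, and ATP5MD (64.2 ± 5.39 against 67.8 ± 4.05 FPKM) did not pass the threshold. The inhibitor ATP5IF1, which blocks ATP breakdown by the enzyme, was at 38.3, 36.6 and 34.8 against 49.5, 51.6 and 45.2 FPKM, 1.33-fold lower (log2 fold change -0.40, SE 0.066, adjusted p = 0.00126). ATP5MF-PTCD1 had 8 against 4 reads and ATP5MGL 0 against 2 reads.

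The subunits encoded in mitochondrial DNA gave the other side of each enzyme. Of 13 such genes 8 were higher, 0 lower and 5 not past the threshold, and their summed level was 61880.4 ± 1890 FPKM against 38515 ± 4535 FPKM. Called higher were 61.5% of the 13, against 37.5% of all tested genes. By complex, the mitochondrial sums in the overexpression-labelled over the control-labelled libraries had ratios of 1.42 for complex I (7 genes), 3.31 for complex III (MT-CYB), 1.55 for complex IV (3 genes) and 2.18 for complex V (2 genes). The nuclear sums of the same complexes had ratios of 0.87, 0.75, 1.02 and 0.89. In complex III the contrast of the sums was widest, with MT-CYB at 4287, 4037 and 4215 against 1259, 1542 and 990.3 FPKM. Its 10 nuclear genes were themselves split. Lower were 5, among them UQCRC2, CYC1 and UQCRH, and higher were 4, UQCRC1, UQCRQ, UQCR10 and UQCR11. MT-CO1 (7977 ± 394 against 7646 ± 724 FPKM) did not pass the threshold, and MT-CO3 was 2.76-fold higher. Under quantile normalization, which gives all libraries the same distribution of values, 9 mitochondrial genes were higher and 4 lower.

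**Figure D3:**
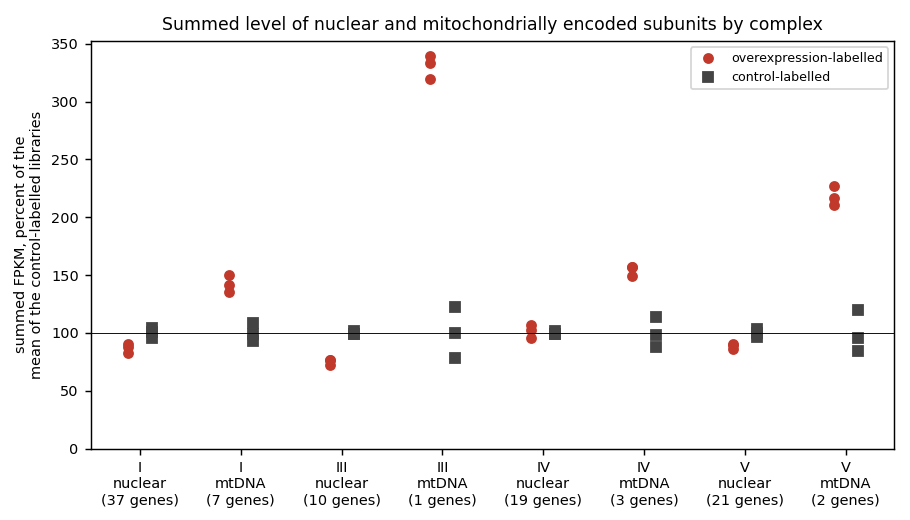
Summed FPKM of the nuclear genes and of the genes in mitochondrial DNA (mtDNA) for complexes I, III, IV and V, in percent of the mean of the control-labelled libraries (y axis); each point is a library, red circles overexpression-labelled, dark squares control-labelled. The mitochondrial sums lie above 100% in all 3 overexpression-labelled libraries and reach their highest for complex III (ratio 3.31), while the nuclear sums of complexes I, III and V lie below it.

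Promoter letters were read for the 73 of 92 genes with an entry in a RefSeq table of promoters (GRCh38.p14, 250 bases before to 50 bases after the annotated start). Genes of the respiratory chain are known for binding sites of NRF1, of ETS factors such as GABP, and of YY1. Exact matches on either strand were counted for CCGGAAG (ETS), AAGATGGCG (YY1) and the palindrome of NRF1 shown in capitals in its windows, motifs chosen after the values had been seen. The ETS letters were in 20 of the 73 promoters, 27.4%, against 10.7% of all 27305 promoters of the same length. The YY1 letters were in 8, 10.96% against 1.85%, and the NRF1 letters in 4, 5.48% against 1.36%. The 27305 promoters were not limited to genes tested here, and no share over the tested genes was worked out. These shares are therefore not known to be particular to respiratory chain genes. The windows that follow show promoters of genes on both sides of the comparison, in the direction of the gene, with the matched letters in capitals (CTTCCGG is CCGGAAG read on the other strand). UQCRH, SDHB and COX4I1 were lower:
UQCRH, chr1:46303642-46303668, plus strand: gtgtgccgcaCTTCCGGccagatcgcc
SDHB, chr1:17054144-17054170, minus strand: acccgggaaaCCGGAAGccgcctccca
COX4I1, chr16:85799687-85799713, plus strand: gccttgctctCTTCCGGtcgcgggaca
The genes UQCRQ, COX6B1 and ATP5ME were higher:
UQCRQ, chr5:132866578-132866604, plus strand: atggtatctcCCGGAAGttacctcacg
COX6B1, chr19:35648301-35648327, plus strand: cctctctcagCTTCCGGctggtagtag
ATP5ME, chr4:674257-674283, minus strand: gcaggttgtgCTTCCGGtgcggaggtc
For YY1, NDUFS4 and SDHB were lower and UQCRC1 higher:
NDUFS4, chr5:53560650-53560678, plus strand: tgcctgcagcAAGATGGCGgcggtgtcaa
SDHB, chr1:17054004-17054032, minus strand: gtcaggagccAAGATGGCGgcggtggtcg
UQCRC1, chr3:48609605-48609633, minus strand: ctgcagctggAAGATGGCGgcgtccgtgg
For NRF1, NDUFB4 was lower and NDUFA8 higher:
NDUFB4, chr3:120596167-120596196, plus strand: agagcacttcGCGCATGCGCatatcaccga
NDUFA8, chr9:122159764-122159793, minus strand: gttgccggatGCGCATGCGCaggcgccgtg
In the 3 YY1 windows shown the match lies just past the start of the gene, in the direction of the gene. The YY1 letters contain ATG, the start codon of translation. Whether these matches are start codons or binding sites was not tested, so their share is not a share of YY1 sites. The same letters stood before genes of either direction: the ETS match was in 10 of 25 promoters of genes called higher, 4 of 23 called lower and 6 of 17 not past the threshold, and the YY1 match in 2, 3 and 2 of them. A match of letters is not a measured binding site, and its absence says only that these letters are not in the window.

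The regulators themselves were more often lower than higher. Of 20 genes that drive mitochondrial biogenesis and transcription, 19 were tested, 4 were higher and 12 lower, with a median log2 fold change of -0.53 against -0.03 for all tested genes. Of the 19, 21.1% were higher and 63.2% lower, against 37.5% and 39.3% of all tested genes. PPARGC1A, the coactivator PGC-1alpha, was at 0, 0 and 0 against 4.12, 3.10 and 3.804 FPKM, with 0 reads under the overexpression label and 1991 under the control label. Taking 3 reads over the 3 libraries as the floor, it was at least 713-fold lower. Its relatives PPARGC1B (0.686 ± 0.0701 against 2.65 ± 0.365 FPKM, 3.86-fold) and PPRC1 (12.1 ± 0.881 against 32.7 ± 3.12 FPKM, 2.71-fold) were lower. GABPB1, the partner of the ETS factor GABPA, was 3.00-fold lower (log2 fold change -1.30, SE 0.139, adjusted p = 0.000142), GABPA 1.33-fold higher and NRF1 1.29-fold lower. TFAM, which packages mitochondrial DNA and starts its transcription, was 1.20-fold lower, and TFB1M 2.03-fold higher.

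Assembly factors, which build the complexes and are not part of them, went both ways: 20 of 45 tested were higher and 15 lower. These are 44.4% and 33.3%, near the 37.5% and 39.3% of all tested genes. COA6 and COA7, needed for complex IV, were lower, with COA6 at 10.5, 12.8 and 12.2 against 54.2, 49.6 and 59.4 FPKM (4.60-fold, log2 fold change -2.11, SE 0.095, adjusted p = 2.21e-06) and COA7 at 10.4, 10.1 and 9.62 against 33.3, 29.01 and 34.0 FPKM (3.19-fold). TMEM126B, of the complex I membrane arm, was 2.28-fold lower. COX16 (2.04, 2.44 and 2.07 against 0.626, 1.27 and 0.128 FPKM, 3.23-fold), COX18 (2.49-fold) and SDHAF3, an assembly factor for the SDHB subunit (2.36-fold), were higher. Thus SDHAF3 and SDHB had opposite directions.

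Of 17 tested citric acid cycle and pyruvate dehydrogenase genes, 3 were higher and 5 lower, a split that became 6 and 2 with FPKM on the sum of reads and with voom. In the main test 47.1% of the 17 were called, against 76.8% of all tested genes. FH, fumarase, which takes the product of complex II, was at 33.1, 30.1 and 31.2 against 81.5, 83.6 and 77.4 FPKM (2.57-fold lower, log2 fold change -1.33, SE 0.057, adjusted p = 1.63e-06), and so fell together with SDHA and SDHB. IDH3B, a subunit of isocitrate dehydrogenase, was 2.41-fold higher. Among 18 import, chaperone and channel genes 4 were higher and 9 lower, with VDAC2 (3.10-fold), HSPA9 (2.98-fold) and TOMM20 (2.62-fold) the lowest and PHB and PHB2 (1.40-fold) the highest. These are 22.2% higher and 50% lower, against 37.5% and 39.3% of all tested genes.

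The genes were next ordered by chromosome. Of 8 tested respiratory chain genes on chromosome 1, among them ATP5IF1, ATP5PB, NDUFS5, SDHB, SDHC, UQCRH and UQCRHL, 7 were lower and 0 higher; of all 1435 tested genes there 56.7% were lower and 25.2% higher. On chromosome 8, 3 of 4 were lower (CYC1, UQCRB and COX6C) and on chromosome 16 3 of 3 (COX4I1, NDUFB10 and UQCRC2), where 51.7% and 54.3% of all tested genes were lower. All 3 on chromosome 14 and all 3 on chromosome 21 were higher, where 46.1% and 40.1% of tested genes were higher. Chromosome 9 went the other way: both of its genes, NDUFA8 and NDUFB6, were higher, where 30.6% of tested genes were higher and 46.1% lower.

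Single genes were also set beside their neighbours. SDHA lies at the tip of chromosome 5, where 28 of 34 tested genes within 2 Mb were lower, with a median log2 fold change of -1.22, and NDUFS6, close by and sharing most of those neighbours, had 28 of 36 lower. Around ATP5MF 58 of 86 neighbours were higher, and around NDUFA3 49 of 79. Among the exceptions were NDUFA12, higher beside 12 lower and 6 higher neighbours, NDUFC2, higher beside 16 lower and 4 higher, and ATP5MC1, lower beside 48 higher and 10 lower. Over the 80 genes the log2 fold change and the neighbours' median had Pearson's r of 0.56 and Spearman's rho of 0.55, a description across genes, some of which share neighbours. The sign was the same for 61 of the 80. Neither measure was worked out over all tested genes, so the values are not known to be particular to respiratory chain genes. Copy number was not measured here.

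**Figure D4:**
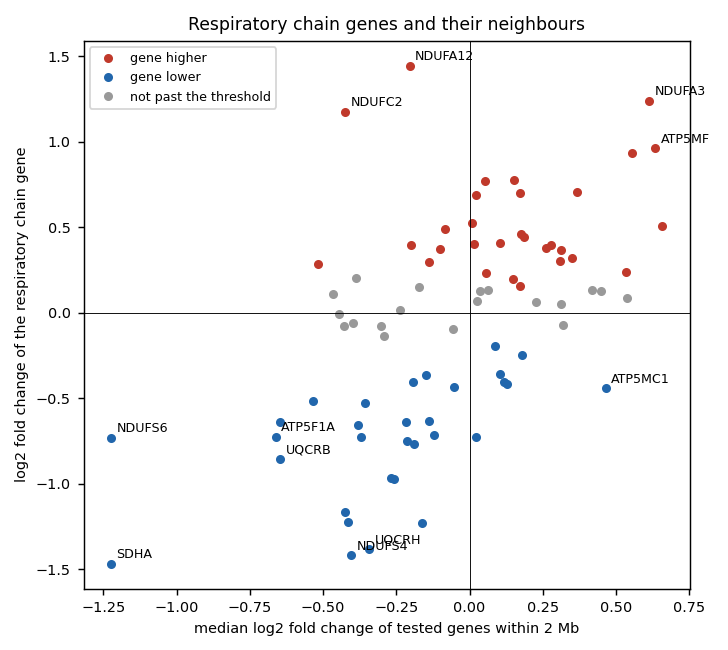
Log2 fold change of each of the 80 tested respiratory chain genes (y axis) against the median log2 fold change of the tested genes within 2 Mb of it (x axis); red higher, blue lower, grey not past the threshold. SDHA and NDUFS6 lie at the lower left with neighbours at -1.22, NDUFA3 and ATP5MF at the upper right, and NDUFA12 and NDUFC2 at the upper left, against their neighbours.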

How the data were processed

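The authors deposited 1 table of FPKM per gene for 6 libraries, with gene lengths; the sources used here do not give the alignment, the counting or its use of strand. The build was mm10 per the submitters' processing notes, but all 58735 genes match GENCODE release 29 (GRCh38) in identifier, symbol, start and end, and for 92 of 92 members the length equals the union of annotated exons, so genes with long rare exons have low FPKM. Deposited FPKM times length came in whole multiples of 1 smallest step in each library (100% within 0.001), taken as 1 read; the authors' values carry a scaling beyond the read total (a denominator 1.04 to 1.05 times the reads in the overexpression-labelled, 0.958 to 0.995 in the control-labelled libraries). A floor of 3 reads equals 0.166 to 0.184 FPKM at a length of 1 kilobase; it and counts of 0 cover counting error only.

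Samples were grouped by their titles. 1 member enters the counts and sums and is not reported here by itself. The members and gene lists were chosen with earlier results of these data known; the groupings within complexes I and V and the motifs were chosen after the values were seen. The test was limma 3.58.1 (R 4.3.3) with a trend on log2(FPKM + 1), two-sided, over the 13972 genes averaging 1 FPKM or more, group as the only term, Benjamini-Hochberg adjustment, threshold 0.05. This scale understates changes of low genes; each fold is a ratio of mean FPKM. The step was tested on simulated data. Named were, per complex, up to 4 genes of largest change in each direction, the untested genes, isoform pairs, core subunits, and up to 3 genes a direction of each other list, with others named after their values were seen. Alternatives were another pseudocount, filter or scaling, TPM, voom, no trend, a replicate block and each library left out. Python 3.11.15 was used for the rest.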

Additional observations from a re-analysis of the deposited data

How the results depend on the processing

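Over 16 alternative settings, 54 of the 61 respiratory chain genes called in the main test kept their call and direction wherever tested (26 higher, 28 lower). The exceptions were ATP5F1D, ATP5PO, COX7A2, NDUFA1, NDUFA8, NDUFB6 and NDUFS8. Among the settings, scaling by the median ratio between libraries is not a separate check. Its factor was 1.008 in all 6 libraries, so it nearly repeated the main fit. Higher and lower counts of members ranged from 26 to 32 and 30 to 32 when 1 library was left out, and were 39 and 28 with quantile normalization, 38 and 28 with FPKM on the sum of reads and 40 and 29 with voom, with a shift of the median of all genes of 0.096 and 0.11 (log2) in the last pair. Replicate numbers do not pair the samples: deviations of same-numbered libraries correlated at -0.0059, -0.022 and 0.0075, and the fit with a replicate block gave 29 higher and 30 lower. Counts that moved over 1.5 times were complex I higher (21, voom), all genes higher without a filter (8155), all genes higher and lower at a mean of at least 5 FPKM (2784 and 3434), biogenesis regulators higher at that filter (2), mitochondrially encoded genes lower under quantile normalization (4), and citric acid cycle genes (6 higher and 2 lower with the sum of reads and with voom; 3 to 5 and 4 to 9 leaving out 1 library, the extreme being without control replicate 3). Of 33 tested members that share no exon bases with another gene and under 5% of their 50-base words, an alternative chosen after seeing the data, 11 were higher and 18 lower. Fewer genes enter it, which lowers both counts, but the balance also moved toward lower. All 80 tested members had 30 higher and 31 lower, and of all tested genes 37.5% were higher and 39.3% lower. The even split of the members thus depends on genes with shared bases or words. With the sum of reads, added later for the sums, the summed levels had ratios of 0.94 (complex I), 0.60 (II), 0.81 (III), 1.10 (IV) and 0.96 (V). Reversed signs were all small and among genes not past the threshold in the main test: COX5B 0.013 and 0.017, ATP5MD 0.027 and 0.032, CYCS 0.037 and 0.042, SDHD 0.028 and 0.033 and SDHC 0.090 and 0.11 (sum of reads and voom), NDUFA13 0.00028 (sum of reads); CYCS 0.013, SDHD 0.034, SDHC 0.026 and NDUFA9 -0.050 (quantile); and over the fits with 1 library left out ATP5F1E -0.0026 to 0.12, COX7A2L -0.046 to 0.078, NDUFA13 -0.14 to 0.054 and SDHC -0.075 to 0.049. The cause was not tested.

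Members under 1 FPKM rest on 0 to 303 reads a group, so differences there were limited by depth.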
